A study of Mus musculus with 8 samples.

Results

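The genes for the caseins and other milk proteins were followed in mouse medullary thymic epithelial cells (mTECs). The group was set by name as 8 genes, Csn1s1, Csn1s2a, Csn2, Csn3, Wap, Lalba, Btn1a1 and Glycam1, out of 20255 genes named on the array. They were represented by 13 of 46089 probes. Of the 8 genes, 6 were above background on both arrays of at least 1 group and were tested. Csn1s2a and Lalba were below background on every array and have no tested value.

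The 8 Illumina bead arrays covered 4 groups with 2 biological replicates each. These were CD80high mTECs of mice with a knockout of the kinase gene Hipk2 restricted to thymic epithelial cells (TECs), CD80high mTECs of wildtype controls from the matings, CD80low mTECs of the knockout mice and CD80low mTECs of the controls. The labels give neither the Cre driver behind the deletion nor the age, strain, sex or number of mice per replicate, nor whether arrays of a shared replicate number came from the same mice. The p-values therefore measure the spread between these samples only. Cells sorted by CD80 are bulk populations, so fewer cells expressing a gene and less RNA per cell cannot be told apart in any value below.

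Milk in rodents is built from casein micelles and whey proteins. The caseins Csn1s1 (alpha-S1), Csn2 (beta) and the alpha-S2-like Csn1s2a and Csn1s2b carry calcium phosphate, and Csn3 (kappa) covers and stabilises the micelle. Their genes lie side by side in 1 cluster on mouse chromosome 5. In lactating mammary epithelium they are induced through prolactin, the kinase JAK2 and the transcription factor STAT5. In the thymus, mTECs transcribe many genes of other tissues, which serves the induction of tolerance in developing T cells, and the casein cluster has been used as a model locus for this promiscuous expression. CD80high mTECs are the mature subset that holds most Aire-expressing cells.

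Casein genes moved together between the subsets, while Csn1s2a, in the same cluster, stayed at background on its single probe. The upstream sequences of the caseins are shown for this reason. Windows of 300 bases, from 250 before to 50 after the annotated start, were taken from RefSeq (GRCm38.p6), which held 6 of the 8 genes. No such window was at hand for Csn3, Btn1a1 or the casein gene Csn1s2b. Of the caseins that moved, only Csn2 and Csn1s1 are therefore covered. Capitals mark matches to TTCNNNGAA, the palindromic letters of a STAT5-type motif, searched on both strands. Csn2 lies at chr5:87699376-87699675 (minus strand), Csn1s1 at chr5:87665958-87666257 (plus strand), Csn1s2a at chr5:87774200-87774499 (plus strand) and Wap at chr11:6638600-6638899 (minus strand).
Csn2: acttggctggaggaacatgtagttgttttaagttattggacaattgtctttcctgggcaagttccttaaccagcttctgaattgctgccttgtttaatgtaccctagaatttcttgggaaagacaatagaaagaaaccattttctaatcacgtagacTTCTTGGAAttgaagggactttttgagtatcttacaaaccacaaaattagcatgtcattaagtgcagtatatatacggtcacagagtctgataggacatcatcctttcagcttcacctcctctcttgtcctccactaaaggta
Csn1s1: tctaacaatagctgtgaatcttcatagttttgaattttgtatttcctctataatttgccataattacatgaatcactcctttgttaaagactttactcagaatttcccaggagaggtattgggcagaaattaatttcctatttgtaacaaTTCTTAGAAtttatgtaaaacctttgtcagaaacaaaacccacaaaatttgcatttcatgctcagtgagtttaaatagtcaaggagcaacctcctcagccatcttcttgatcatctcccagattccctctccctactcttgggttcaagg
Csn1s2a: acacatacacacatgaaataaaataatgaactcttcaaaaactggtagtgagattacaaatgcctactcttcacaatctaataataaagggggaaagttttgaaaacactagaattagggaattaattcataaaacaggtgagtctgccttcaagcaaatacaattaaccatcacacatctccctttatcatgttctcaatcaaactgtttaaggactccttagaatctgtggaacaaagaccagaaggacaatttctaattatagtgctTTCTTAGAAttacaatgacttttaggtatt
Wap: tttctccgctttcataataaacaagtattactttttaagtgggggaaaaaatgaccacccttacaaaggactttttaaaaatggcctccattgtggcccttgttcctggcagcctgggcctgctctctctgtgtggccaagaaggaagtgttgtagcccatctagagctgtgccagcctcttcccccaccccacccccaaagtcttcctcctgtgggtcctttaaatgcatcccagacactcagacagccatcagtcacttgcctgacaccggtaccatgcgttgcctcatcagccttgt
The match read TTCTTGGAA at positions -93 to -85 of Csn2 and TTCTTAGAA at -100 to -92 of Csn1s1. In Csn1s2a the same TTCTTAGAA lay downstream of the start, at 21 to 29. Glycam1, whose window is not printed, held TTCCCAGAA at -145 to -137. The windows of Wap and Lalba held no match, which says only that these letters are not in those 300 bases. Of all 32851 windows of this length, 8.30% held at least 1 match. The letters TATAAA, on either strand, were in 13.6% of all windows and in none of the 6. CpG dinucleotides were scarce in these windows, with 2 in Csn2, 0 in Csn1s1, 0 in Csn1s2a, 0 in Glycam1, 3 in Wap and 3 in Lalba, against a median of 7 over all windows. GC content was 38.7% in Csn2, 35.3% in Csn1s1, 32.3% in Csn1s2a, 50.3% in Glycam1, 50.3% in Wap and 49.0% in Lalba. The median over all windows was 52.7%. The 8.30% is taken over all windows and is not matched for base composition, so it is no chance rate for the casein windows. A match is a description of the sequence and not a measured binding site.

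Each value given below as an intensity is the deposited value of 1 probe on 1 array, on a linear scale from which no background had been subtracted. Background thresholds lay between 106.7 and 114.3 across arrays, and 42.7% to 48.5% of probes were above them. Differences are given on the log2 scale after background correction and quantile normalisation, with the standard error (SE) of the limma fit and its Benjamini-Hochberg adjusted p over 13312 genes. A gene was called at an adjusted p under 0.05. Different probes bind with different efficiency, so levels are not compared between genes.

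The labels were checked first. Of 5 probes for Hipk2, 1 gave 538 and 714 in CD80high cells of knockouts, against 1497 and 1689 in control CD80high cells. In CD80low cells the same probe gave 737 and 934 in knockouts, against 1196 and 1912 in controls. It is named Hipk2 through an older symbol, and its averaged difference of -1.20 ± 0.19 (SE) did not pass (limma adjusted p = 0.104). A dimmer probe gave 117 and 118 in knockout and 128 and 123 in control CD80high cells. In CD80low cells it gave 122 and 140 in knockouts and 160 and 156 in controls. It was thus lower in knockouts within each subset, though not far above background. Another probe overlapped between genotypes, and 2 were not tested. Which part of the gene was deleted is not given, so a probe outside it would check nothing. The transporter gene Slc13a2 was the one gene called between genotypes, with an averaged difference of 5.85 ± 0.16 (limma adjusted p = 9.55e-08). Aire, the transcriptional regulator of promiscuous expression, was 4.56 ± 0.15 higher in CD80high than in CD80low cells (limma adjusted p = 2.23e-08), and Cd80 itself 4.81 ± 0.23 higher (limma adjusted p = 9.18e-08). The transcription factor gene Fezf2 was 1.98 ± 0.17 higher (limma adjusted p = 3.96e-06).

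Replicate 1 of CD80low cells stood apart in both genotypes. The summed intensity of the 8 tested thymocyte markers was 14422 in knockout and 12816 in control CD80low replicate 1, but 2427 in knockout and 2286 in control CD80low replicate 2. In CD80high cells, where 5 to 7 of the 8 were above background, it was 1861 to 1877 in knockouts and 1657 to 1791 in controls. Erythroid markers (7 tested) summed to 5546 in knockout and 9237 in control CD80low replicate 1. They summed to 1027 to 1183 in CD80low replicate 2 and to 2262 to 3557 in CD80high arrays. Above background were 2 of the 7 in knockout and 3 in control CD80low replicate 1, against 6 to 7 in CD80high arrays. Those high sums thus rest on few genes. The mean log2 there was 6.84 in knockout and 6.97 in control, below the 7.27 to 7.61 of CD80high arrays. Myeloid and dendritic markers (8 tested of 12) moved with the subset, at 6793 to 7635 in CD80high and 1672 to 2141 in CD80low arrays, with all 8 above background in CD80high and 6 to 7 in CD80low arrays. The 2 tested B cell markers of 6 also did so, at 833 to 1098 in CD80high and 266 to 423 in CD80low arrays. Fibroblast and endothelial markers (9 tested of 10) ran the other way, at 2397 to 2952 in CD80high and 9213 to 11816 in CD80low arrays. The part of other cell types in the milk gene values was not tested.

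Csn2, the gene of beta-casein, had the widest separation of the subsets in the group. It gave 14207 and 13089 in CD80high cells of knockouts, against 163 and 335 in their CD80low cells. In controls it gave 12930 and 12740 in CD80high cells, against 152 and 314 in CD80low cells. All CD80high arrays were far above all CD80low arrays, and the gene was above background on all 8, the only member for which this held. The brightest probe on any array lay between 29782 and 37201, above the Csn2 values. Csn2 was 6.39 ± 0.49 higher in CD80high than in CD80low cells of knockouts, a ratio of 83.9 (limma adjusted p = 5.22e-06). In controls it was 6.45 ± 0.49 higher, a ratio of 87.6 (limma adjusted p = 4.85e-06). Averaged over genotypes, the difference was 6.42 ± 0.35 (95% interval 5.65 to 7.19, limma adjusted p = 1.89e-07).

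The Csn2 difference was the highest among 13312 tested genes in each genotype and in the average. In CD80low cells replicate 2 was the higher one in both genotypes, with an SD of 1.03 on the log2 scale in knockouts and 1.02 in controls (n = 2 each). CD80high replicates had SDs of only 0.07 in both. Without both CD80low replicate 1 arrays the averaged difference was 5.70, still called, and ranked 2 behind Pgc, the gene of pepsinogen C. The brightest Aire probe split in the same direction. It gave 332 in knockouts and 335 in controls in CD80low replicate 1, and 405 in knockouts and 411 in controls in CD80low replicate 2. A dimmer Aire probe split likewise. The dimmest gave 111 and 113 in knockout CD80low replicates 1 and 2, and 132 and 120 in those of controls. Whether the Csn2 and Aire splits are linked was not tested. Genes at background in CD80low cells have only a lower bound on their difference, which also limits the order.

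Csn1s1, the gene of alpha-S1-casein, gave 582 and 406 in CD80high cells of knockouts, against 103 and 105 in their CD80low cells. In controls it gave 469 and 472 in CD80high cells, against 96.2 and 108 in CD80low cells. CD80low cells of both genotypes were at background, so the gene was at least 9.54-fold higher in CD80high cells of knockouts and at least 9.23-fold higher in those of controls. The fitted difference averaged 3.63 ± 0.19 (limma adjusted p = 1.38e-07). Its 2 other probes, both named by the older symbol Csna, stayed below background on every array and recorded nothing of this difference.

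Csn3, the gene of kappa-casein, gave 729 and 502 in CD80high cells of knockouts, against 106 and 112 in their CD80low cells. In controls it gave 542 and 475 in CD80high cells, against 104 and 120 in CD80low cells. Of the CD80low arrays, 1 was above background, control replicate 2. In knockouts, whose CD80low cells were at background, Csn3 was at least 12.3-fold higher in CD80high cells. The fitted ratios, a different measure from this lower bound, were 13.6 in knockouts and 10.4 in controls. The fitted difference averaged 3.58 ± 0.19 (limma adjusted p = 1.94e-07). A second Csn3 probe ran the same way, at 318 to 394 in CD80high and 101 to 106 in CD80low arrays while 1 more was never above background.

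Csn1s2a, the alpha-S2-like casein gene next to Csn2 in the cluster, gave no signal above background on its single probe. Its intensity lay between 89.4 and 109 across the 8 arrays. Fitted without any filter on dim probes, its averaged subset difference was -0.20 ± 0.19 (limma adjusted p = 0.474). A level below the detection limit of this array is not shown to be absent. Csn1s1, Csn3 and Csn1s2b, all detected, also had probes that stayed below background on every array. With a single probe, a probe that fails to report the gene cannot be told apart from a low level.

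Of the whey protein genes, Wap split like the caseins and Lalba was not detected. Wap, the gene of whey acidic protein, gave 548 and 498 in CD80high cells of knockouts, against 105 and 102 in their CD80low cells. Control cells gave 595 and 648 in CD80high cells, against 99.5 and 92.9 in CD80low cells. Every CD80low array was at background, so Wap was at least 10.4-fold higher in CD80high cells of knockouts and at least 12.6-fold higher in those of controls. The fitted difference averaged 4.06 ± 0.14 (limma adjusted p = 2.23e-08). Lalba encodes alpha-lactalbumin, the regulatory subunit of lactose synthase, and stayed between 87.4 and 101 on all arrays. Its unfiltered averaged difference was -0.05 ± 0.16 (limma adjusted p = 0.841).

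Btn1a1 and Glycam1 were dim and differed less between the subsets. Btn1a1, the butyrophilin of the milk fat globule membrane, gave 121 and 132 in CD80high cells of knockouts, against 105 and 99.2 in their CD80low cells. Control cells gave 130 and 120 in CD80high cells, against 103 and 95.1 in CD80low cells. The groups did not overlap, CD80low cells were at background, and the averaged difference was 0.86 ± 0.15 (limma adjusted p = 6.19e-04), at least 1.27-fold. The call within knockouts (limma adjusted p = 0.0105) was lost without knockout CD80high replicate 2 (adjusted p = 0.0656), without knockout CD80low replicate 2 (0.0745) with no background correction (0.0514) and on the deposited values as they stand (0.0572). The call within controls (limma adjusted p = 0.00534) was lost without control CD80high replicate 1 (adjusted p = 0.0545). A second Btn1a1 probe was never above background.

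Glycam1 encodes a mucin-like protein of lymph node venules that binds L-selectin, and is also made in the lactating mammary gland. It gave 141 and 130 in CD80high cells of knockouts, against 96.6 and 98.2 in their CD80low cells. Control cells gave 182 and 147 in CD80high cells, against 135 and 102 in CD80low cells. The groups separated within each genotype but overlapped when genotypes were put together. The averaged difference was 1.06 ± 0.24 (limma adjusted p = 0.00315). It was called in knockouts, at least 1.48-fold (limma adjusted p = 0.013), and not in controls, where it was 0.89 ± 0.33 (limma adjusted p = 0.054). Without control CD80low replicate 1 it was 1.43 and called (adjusted p = 0.0042), and the knockout call was lost without knockout CD80high replicate 1 (adjusted p = 0.0901) and with no background correction (0.0594). The 2 genotypes' subset differences were not shown to differ (0.35 ± 0.47, limma adjusted p = 1.0).

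**Figure D1:**
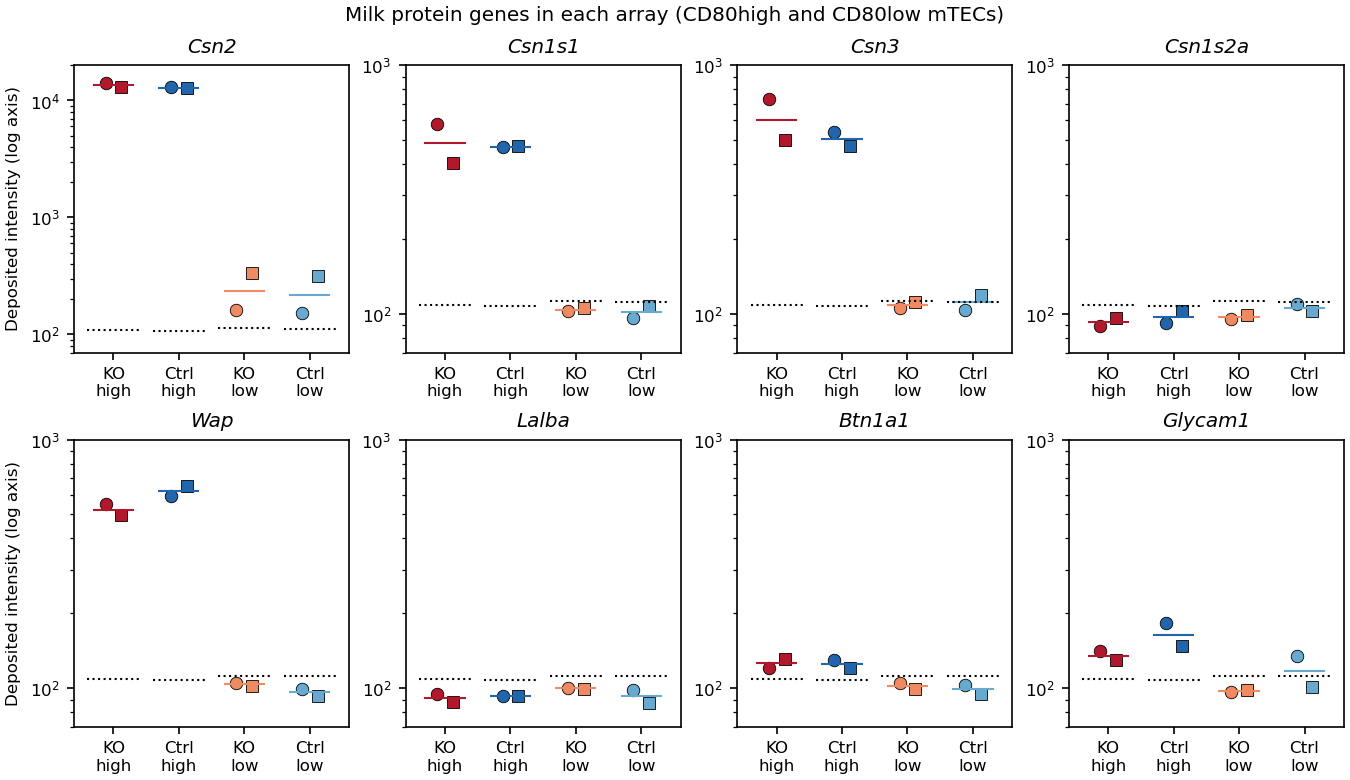
Deposited intensity (log axis) of the brightest probe of each milk protein gene, in knockout (KO) and control (Ctrl) arrays of CD80high and CD80low mTECs. Circles are replicate 1, squares replicate 2, short lines the geometric mean of 2 arrays and dotted lines the mean background threshold of the group. Csn2, on a wider axis than the other panels, lies between 12740 and 14207 in CD80high arrays and between 152 and 335 in CD80low arrays, and Csn1s2a and Lalba stay below background throughout.

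Counted together, all 6 tested members were called higher in the averaged comparison of CD80high with CD80low cells, where 30.1% of all tested genes were called higher and 27.9% lower. In knockouts 6 of 6 were called higher, beside 23.3% of all genes, and in controls 5 of 6, beside 23.7%. Of the 6, 5 entered the test only through CD80high cells, so that a difference in this direction was built into their passing and the count supports nothing by itself. Without the filter, when all 8 members were tested, 19.1% of 20255 genes were called higher. Differences of at least 3 on the log2 scale were found for 4 members, Csn2, Wap, Csn1s1 and Csn3, and for 364 of 13312 genes, or 2.73%. Wap, Csn1s1 and Csn3 entered the test only through CD80high cells, and the members were chosen with earlier results of these data known. This count therefore supports nothing by itself either. The size depends on the background correction: on the deposited values as they stand, the averaged differences were 5.87 for Csn2 and 2.22 to 2.51 for Csn1s1, Csn3 and Wap, all still called.

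None of the 6 tested members passed the test between Hipk2 knockout and control cells. In CD80high cells the differences between knockout and control lay between -0.47 and 0.31, with 0 members called and 0.00751% of all genes called. In CD80low cells they lay between -0.82 and 0.35, with 0 members called beside 0.00751% of all genes. Averaged over the subsets they lay between -0.65 and 0.12, again with 0 members called beside 0.00751% of all genes. The 1 gene called in each was Slc13a2. Without adjustment, limma gave p under 0.05 to 209 genes in CD80high cells, 888 in CD80low cells and 693 on average.

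The intervals leave room for changes of some size. For Csn2, knockout minus control was 0.06 in CD80high cells (95% interval -1.03 to 1.15) and 0.09 averaged over subsets (-0.68 to 0.86). Averaged over subsets it was 0.07 for Csn1s1 (-0.34 to 0.49), 0.12 for Csn3 (-0.32 to 0.55) and 0.04 for Wap (-0.26 to 0.31). Btn1a1 stood at 0.08 (-0.25 to 0.41). The lowest value was that of Glycam1, at -0.65 ± 0.24 averaged over subsets (-1.17 to -0.12, limma adjusted p = 0.793). Glycam1 in CD80low cells (-0.82 ± 0.33, limma adjusted p = 0.677) was 1 of those 888 genes. That value rests on control CD80low replicate 1, at 135 the only CD80low array above background for Glycam1 and one of the arrays with the high thymocyte and erythroid sums, whose part was not tested. Without that array the difference was -0.28 (limma adjusted p = 0.991), and leaving out each array in turn gave -1.36 to -0.28.

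Whether the subset difference itself depended on the genotype was tested as an interaction, and 0 of 6 members and 0% of all genes were called. Without adjustment, 420 genes had a p under 0.05. Wap had the lowest value, -0.61 ± 0.27 (unadjusted p = 0.0474, limma adjusted p = 1.0). Its knockout arrays, 548 and 498, were below its control arrays, 595 and 648, in CD80high cells, while CD80low cells of both genotypes were at background, where an order has no meaning. With 2 arrays against 2, an exact permutation test of a single gene cannot give a two-sided p below 0.333.

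**Figure D2:**
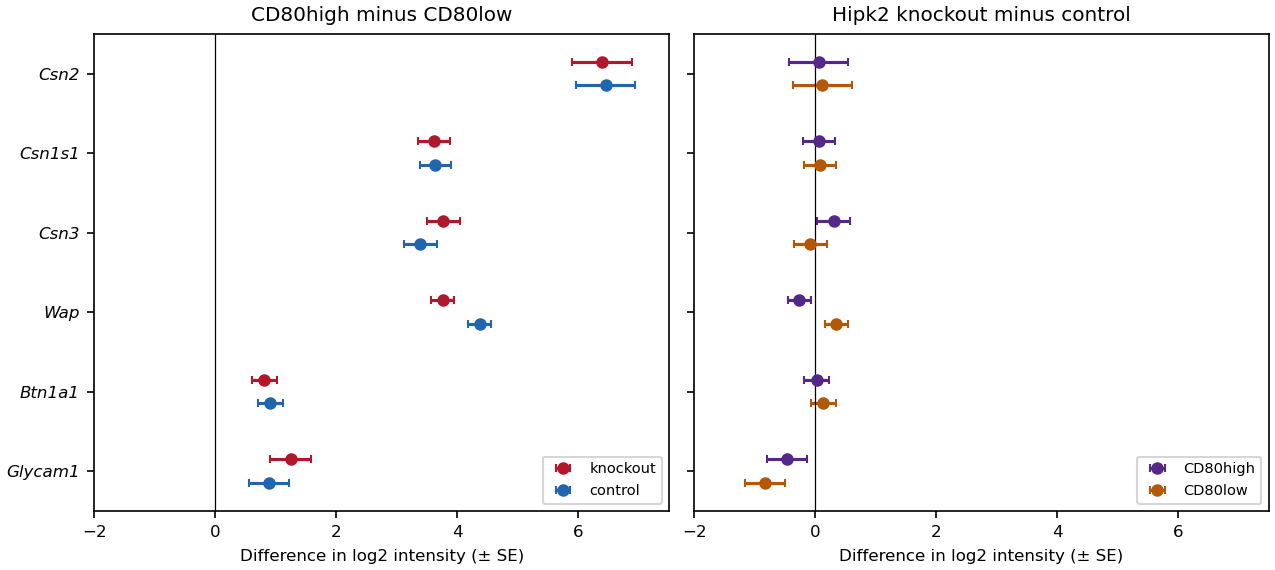
Difference in normalised log2 intensity of the 6 tested milk protein genes, with the standard error of the limma fit as bars. CD80high minus CD80low (left) reaches 6.39 in knockouts and 6.45 in controls for Csn2, while Hipk2 knockout minus control (right) stays between -0.82 and 0.35.

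The neighbours of the caseins were then followed along chromosome 5, from Sult1b1 to Jchain. RefSeq lists 20 protein-coding genes there, of which 19 were on the array, 10 were tested and 7 were never above background. Of the 10 tested genes, 9 were called higher in CD80high cells, 0 were called lower, and 0 were called between genotypes. These 9 include the members Csn1s1, Csn2 and Csn3, already counted above. Of the 7 tested genes of the locus outside the group, 6 were called higher. Over all genes tested, 30.1% were called higher, 27.9% lower and 0.00751% between genotypes on average. As with the members, 9 of the 10 passed the filter only through CD80high cells. Csn1s2b, a second alpha-S2-like casein gene, gave 439 and 252 in knockout CD80high cells, 338 and 248 in control CD80high cells and 95.8 to 101 in all CD80low arrays. It was at least 5.47-fold higher in CD80high cells (fitted 3.10 ± 0.23, limma adjusted p = 1.48e-06).

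The remaining genes called there are not milk genes. Amtn, the gene of the enamel protein amelotin, was at least 4.95-fold higher in CD80high cells (fitted 2.66 ± 0.16), and Ambn, that of the enamel protein ameloblastin, at least 1.62-fold (fitted 1.21 ± 0.20). The salivary gene Smr3a was at least 1.94-fold higher (fitted 1.36 ± 0.19) and the sulfotransferase gene Sult1d1 at least 1.91-fold (fitted 1.18 ± 0.15), as the probes used for these 4 genes were at background in all CD80low arrays. Of the dimmer, untested probes, that of Sult1d1 was above background only in control CD80low replicate 2 (115) and that of Smr3a only in knockout CD80low replicate 1 (112). Cabs1, known from spermatids, was 1.82 ± 0.29 higher on the log2 scale. Between these lay genes that were below background on all arrays, Csn1s2a, Prr27, Odam and BC037156 on either side of Csn1s2b, so signal above background was not continuous along the cluster.

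Prol1, a gene of the same cluster, behaved unlike its neighbours. It gave 154 and 124 in CD80high cells of knockouts, against 1203 and 105 in their CD80low cells. In controls it gave 184 and 142 in CD80high cells, against 798 and 101 in CD80low cells. Only CD80low replicate 1 was high, in both genotypes, and the second Prol1 probe showed the same split. With all arrays the averaged difference was -1.19 ± 1.08 (limma adjusted p = 0.37). With the replicate number as a block within each subset, the same -1.19 had a limma adjusted p of 5.37e-05, so that 9 genes of the locus were called higher and 1 lower, while a block across subsets gave an adjusted p of 0.166. No label says that the numbers mark shared mice or a shared day. Without both CD80low replicate 1 arrays, the arrays with the high thymocyte and erythroid sums, it was 1.19 (limma adjusted p = 0.00221), and 10 of 10 tested genes of the locus were then called higher, beside 28.2% of all genes in that fit. Of these 10, 9 had passed the filter only through CD80high cells. These recounts of the locus, and the rank of Csn2, were added after the data were seen. Without knockout CD80low replicate 2 alone it was -2.45 (limma adjusted p = 0.0241).

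**Figure D3:**
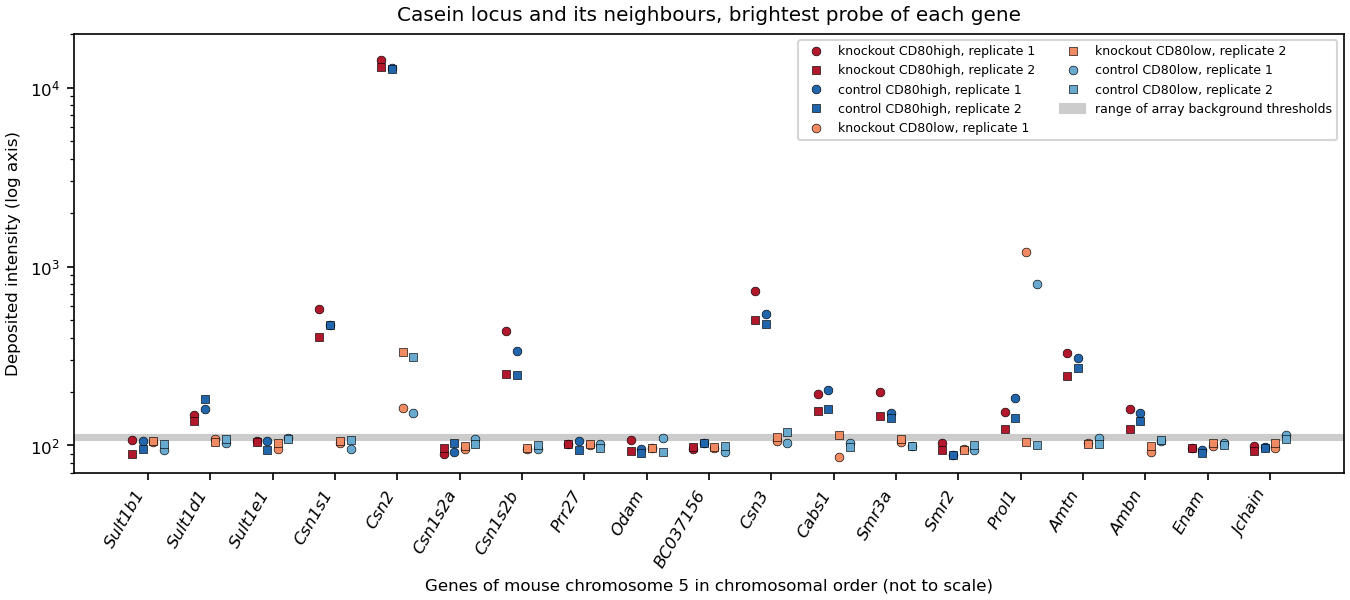
Deposited intensity (log axis) of the brightest probe of 19 genes of mouse chromosome 5, in chromosomal order, in each of the 8 arrays. The grey band is the range of background thresholds, 106.7 to 114.3. Csn2 lies between 12740 and 14207 in CD80high arrays, and Prol1 is high in CD80low replicate 1 only, at 1203 in the knockout and 798 in the control.

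Other genes of milk synthesis were taken from lists chosen with earlier results of these data known. They were read against the all-gene median of -0.02, with 30.1% of all genes called higher and 27.9% lower. Of 12 tested milk and lactation genes outside the group, 8 were called higher in CD80high cells and 1 lower, with a median difference of 1.00. Saa3, a serum amyloid A gene, gave 3843 and 4744 in knockout CD80high cells and 5261 and 7934 in control CD80high cells, against 153 to 421 in all CD80low arrays (5.18 ± 0.35, limma adjusted p = 8.50e-07). Cel, the bile salt-stimulated lipase of milk and pancreas, was 2.71 ± 0.16 higher and the lactoperoxidase gene Lpo 1.82 ± 0.22. Csn1s2b, described above, belongs to this list too. On the probes used, neither Csn1s2b nor Cel was above background on both arrays of a CD80low group. Their passing through CD80high cells only built in the direction, and the count supports nothing by itself.

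Genes of the milk fat globule did not share a direction. Of 10 tested, 3 were called higher and 2 lower in CD80high cells, with a median of 0.13. Over all genes 30.1% were called higher and 27.9% lower, so these counts are near the shares of all genes. The mucin gene Muc1 gave 2400 and 2595 in knockout CD80high cells and 2366 and 2553 in control CD80high cells, against 244 to 350 in CD80low arrays (3.41 ± 0.14, limma adjusted p = 4.14e-08). Fabp3, a fatty acid binding protein gene, was 3.19 ± 0.25 higher and on the probe used had passed the filter only through CD80high cells. Xdh, the gene of xanthine oxidoreductase, which binds butyrophilin on the globule, was -1.58 ± 0.22 and thus lower in CD80high cells, as was Cidea, a lipid droplet gene, at -1.44 ± 0.22.

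The prolactin pathway was measured through 12 genes, of which 2 were called higher and 4 lower in CD80high cells, with a median of -0.05. Beside them stand 30.1% of all genes called higher and 27.9% lower. The 2 higher ones, named after their values were seen, were the transcription factor genes Stat5a (0.87 ± 0.17, limma adjusted p = 0.00151) and Elf5 (0.98 ± 0.21, limma adjusted p = 0.00256). The 4 lower ones were Nfib at -3.37 ± 0.14, Socs3 at -2.46 ± 0.16, Nfia at -1.46 ± 0.15 and Ghr at -1.20 ± 0.15. Nfib and Nfia encode nuclear factor I proteins, Socs3 an inhibitor of cytokine signalling and Ghr the growth hormone receptor. The kinase gene Jak2, chosen in the same way, was not called (0.11 ± 0.20).

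Of 3 tested butyrophilin family genes, Btn1a1 included, 2 were called higher in CD80high cells. Over all genes 30.1% were called higher and 27.9% lower. On the probes used, none of the 3 was above background on both arrays of a CD80low group. They passed the filter only through CD80high cells, so the count supports nothing by itself. Btnl2, a butyrophilin-like gene of the major histocompatibility complex, gave 251 and 253 in knockout CD80high cells and 254 and 289 in control CD80high cells, and was at background in all CD80low arrays, at least 4.41-fold higher. Btn2a2 was not called (0.37 ± 0.23, limma adjusted p = 0.182). Of 5 tested sialomucin and selectin-ligand genes, Glycam1 included, 2 were called higher and 3 lower, beside the same shares of all genes. Madcam1, a mucosal addressin gene, was 3.51 ± 0.16 higher, while Emcn (-1.10 ± 0.18) and the sulfotransferase gene Chst2 (-1.07 ± 0.27) were lower. Glycam1 and Madcam1 also passed the filter only through CD80high cells on the probes used. Between genotypes, 0 genes of any of these lists were called in the averaged comparison, beside 0.00751% of all genes.

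**Figure D4:**
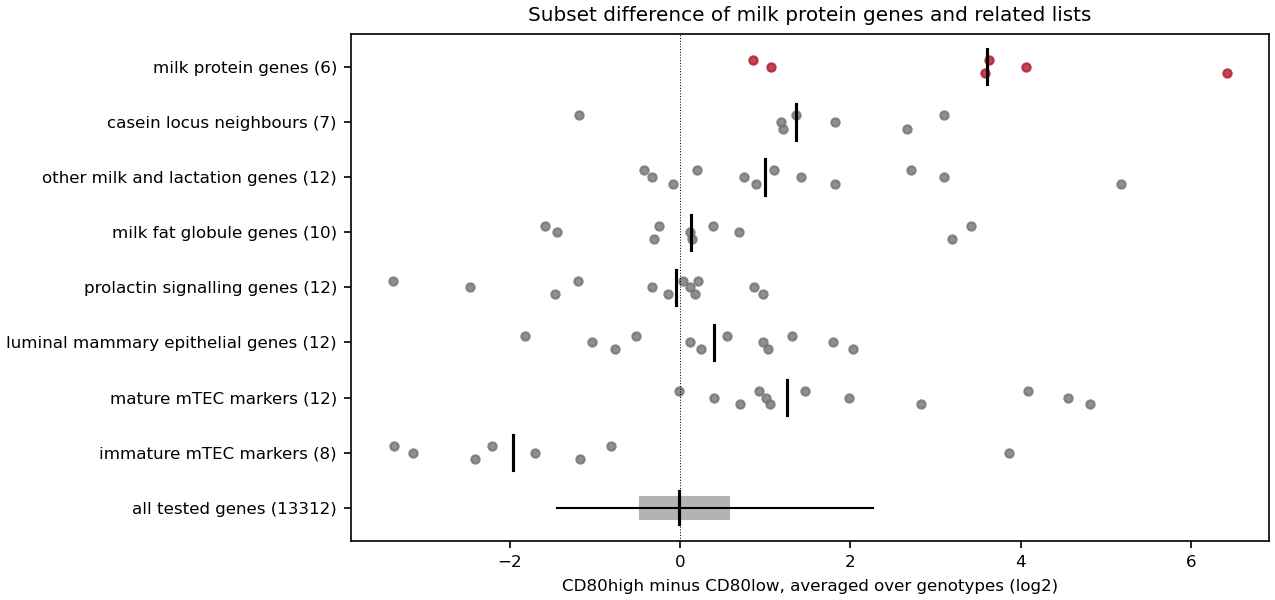
CD80high minus CD80low difference, averaged over genotypes (log2), of the tested milk protein genes and of 7 lists, with each point a gene and each vertical bar the median; the number tested is in brackets. The bottom row gives all 13312 tested genes (line, 5th to 95th percentile, -1.45 to 2.27; box, middle quartiles). The milk protein genes lie between 0.86 and 6.42, and prolactin signalling genes lie on both sides of 0.

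Patterns like those of the members were common. Over the 8 arrays, 221 of 13311 other genes had a Pearson r of at least 0.99 with Csn2 on the log2 scale, 239 with Csn1s1, 185 with Csn3 and 196 with Wap, against 0 with Btn1a1 and 0 with Glycam1. These r values rest on the split into 2 subsets, which any gene that differs strongly between them shares, and are given as a description. The genes closest to Csn2 were Vmo1, Rap1gap and Dleu7 (r = 0.999 each), and those closest to Csn1s1 were Gkn1, Gkn2 and Bpifb2 (0.998 to 0.999). Fam25c, Tulp2 and Nlrc4 were closest to Csn3, and Padi6, Nmu and Itih1 to Wap. Rab8b, Dock10 and Sytl2 were closest to Btn1a1 (0.987 to 0.989), and Crygc, Cmas and Klk10 to Glycam1 (0.973 to 0.974).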

How the data were processed

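Total RNA of sorted mTECs was amplified, labelled with biotin and hybridised to Illumina bead arrays, per the labels' protocols. The values used are the deposited intensity values, 1 per probe and array, on a linear scale. How the authors normalised them is not given in the sources at hand. A second table, from before normalisation, was not used: its 8 signal columns carry slide and position names that could not be tied to samples.

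From the deposited intensities, background was corrected by normexp (offset 16), arrays were quantile-normalised and log2 was taken (limma 3.58.1, R 4.3.3). A probe was tested if above its array's background (the mode of the intensities plus a fixed multiple of their spread) on both arrays of a group. A gene is its brightest tested probe, which left 13312 genes. Group means were fitted with lmFit and eBayes over all 8 arrays (residual df 4, prior df 5.97), with Benjamini-Hochberg adjustment. The averages over genotypes or subsets are contrasts of group means. A fold written "at least" sets the brighter group against the lowest signal above background.

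Of 46089 probes, 35667 carried 1 gene symbol, 0 several and 10422 none. Names were updated through RefSeq (GRCm38.p6) by Entrez ID (28519 probes), accession (2634), current symbol (2122) or a unique older symbol (2336), and 56 kept the platform's name.

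The genes named are the members and their probes, the genotype and sort checks, the genes of each list with the smallest p (up to 4 between subsets and up to 2 between genotypes), the measured neighbours in the casein locus and the 3 genes most like each member. The members and lists were chosen with earlier results of these data known. The fit was tested on simulated data. Alternatives changed the background correction, offset, filter, prior, array weights, replicate block, probe choice and arrays included.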

Additional observations from a re-analysis of the deposited data

How the results depend on the processing

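The number of members called was within 1.5 times the main count in all 137 recomputed counts. It was 0 in every comparison of genotypes, 6 for CD80high minus CD80low averaged over genotypes, 4 to 6 in knockouts and 4 to 6 in controls (leaving out 1 array, 5 to 6 and 4 to 6). Of 822 recomputed member differences, 770 kept direction and side of the threshold, 38 uncalled ones changed sign, 7 lost and 7 gained a call (all 7 gains Glycam1 in controls), and 0 called ones reversed. Csn2, Csn1s1, Csn3 and Wap were called between subsets under every alternative. The averaged Csn2 difference ranged from 5.70 to 6.78.

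Replicate numbers are shared between groups, but no label says that they mark the same mice or day. Deviations of same-numbered replicates correlated at 0.478 in CD80high and 0.525 in CD80low cells between genotypes, and at 0.073 to 0.147 across subsets. With a replicate block, 0 members were called between genotypes, 6 between subsets on average, and Glycam1 in controls gained a call (adjusted p = 0.0176). Called genes over the whole array rose with it to 17 in CD80low cells and 14 on average, against 1 each, and a block within each subset gave 59 and 19. Leaving out 1 array gave 1 to 25 and 1 to 16, the trended prior 12 and 16. Hipk2 passed with the block (adjusted p = 0.0341), the block within subsets (0.0235) and the trended prior (0.0199). Causes were not tested. Probes near background limit Btn1a1, Glycam1, Csn1s2a and Lalba, and 2 arrays per group limit every comparison.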

Other observations

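Genes of luminal mammary epithelium were read as a list that the comparisons above do not use. Of 12 tested, 6 were called higher and 4 lower in CD80high cells, with a median difference of 0.40 on the log2 scale. Over all genes tested, 30.1% were called higher and 27.9% lower, with a median of -0.02. The transcription factor genes Tfap2c (2.03 ± 0.23 SE) and Foxa1 (1.80 ± 0.15) were higher, as was Aldh1a3, a retinaldehyde dehydrogenase gene (1.03 ± 0.13), while the ligand gene Wnt4 was lower (-1.82 ± 0.15). None of the 12 was called between genotypes in the averaged comparison, beside 0.00751% of all genes. Kit at -0.55 ± 0.17 (limma adjusted p = 0.677) and Krt19 at -0.42 ± 0.15 (limma adjusted p = 0.781) had the smallest p.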
